A study of Homo sapiens with 6 samples.

Results

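The genes described here are 10 genes of the epithelial tight junction, chosen by name from the 28395 genes of the deposited table. They are the claudins CLDN1, CLDN2, CLDN3, CLDN4, CLDN7, CLDN12 and CLDN18, the transmembrane protein occludin (OCLN), and the scaffold proteins ZO-1 (TJP1) and ZO-3 (TJP3). RNA-seq was performed on HCC827 cells, an established human lung adenocarcinoma cell line grown in culture whose EGFR carries an activating in-frame deletion. In total 6 libraries were made, 3 from cells that received the vehicle DMSO and 3 from cells that received 1 μM erlotinib, a small molecule inhibitor of the EGFR kinase, each for 24 h. All 6 libraries share the mutant EGFR and come from this 1 cell line, and the labels do not say whether the 3 libraries of a group came from separate cultures, so that the p-values below measure the spread between these libraries, which may be technical. The libraries held 20858083, 24641819 and 21172884 reads on genes in DMSO and 21944007, 20760204 and 21678395 with erlotinib. Values are given as signal, which is the number of reads of a gene divided by 1 size factor per library.

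Tight junctions seal the space between neighbouring epithelial cells at the apical end of their lateral membranes. Claudins are small proteins with several membrane spans that pair across the gap between cells and form the strands of the junction, some of them tightening it and others opening pores for ions or water. Occludin and the related MARVEL proteins lie in the same strands, and the ZO proteins, TJP1 and TJP3 products among them, bind the tails of claudins inside the cell and tie them to actin. In the lung these junctions keep airway and alveolar fluid apart from the tissue, and CLDN18 is a claudin of alveolar epithelium.

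With erlotinib, 4 of the 7 claudins (CLDN1, CLDN3, CLDN4 and CLDN7), OCLN and TJP3 were higher, and 0 of the 10 genes were lower. TJP3 rose most, 8.24-fold, and the 4 claudins rose between 1.58-fold (CLDN7) and 2.45-fold (CLDN3). CLDN12 and CLDN2 did not pass the test, and CLDN18 and TJP1 had too few reads to be tested. The test was limma on log2(signal + 1), applied to 14215 genes whose mean signal reached 10, with Benjamini-Hochberg adjustment over all of them and a threshold of 0.05. Of the 8 tested genes, 6 were called in either direction, a share close to that of all tested genes, of which 70.7% were called. By direction, 6 of 8 were higher and 0 lower, where 35.3% of all tested genes were higher and 35.4% lower. The libraries of the groups did not overlap for 6 of the 8, and for 73.6% of all tested genes, again a similar share. The median log2 fold change was 0.90 over the 8 genes and 0.02 over all tested genes. In a bulk sample, a change in how many cells express a gene and a change in the RNA per cell cannot be told apart.

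**Figure D1:**
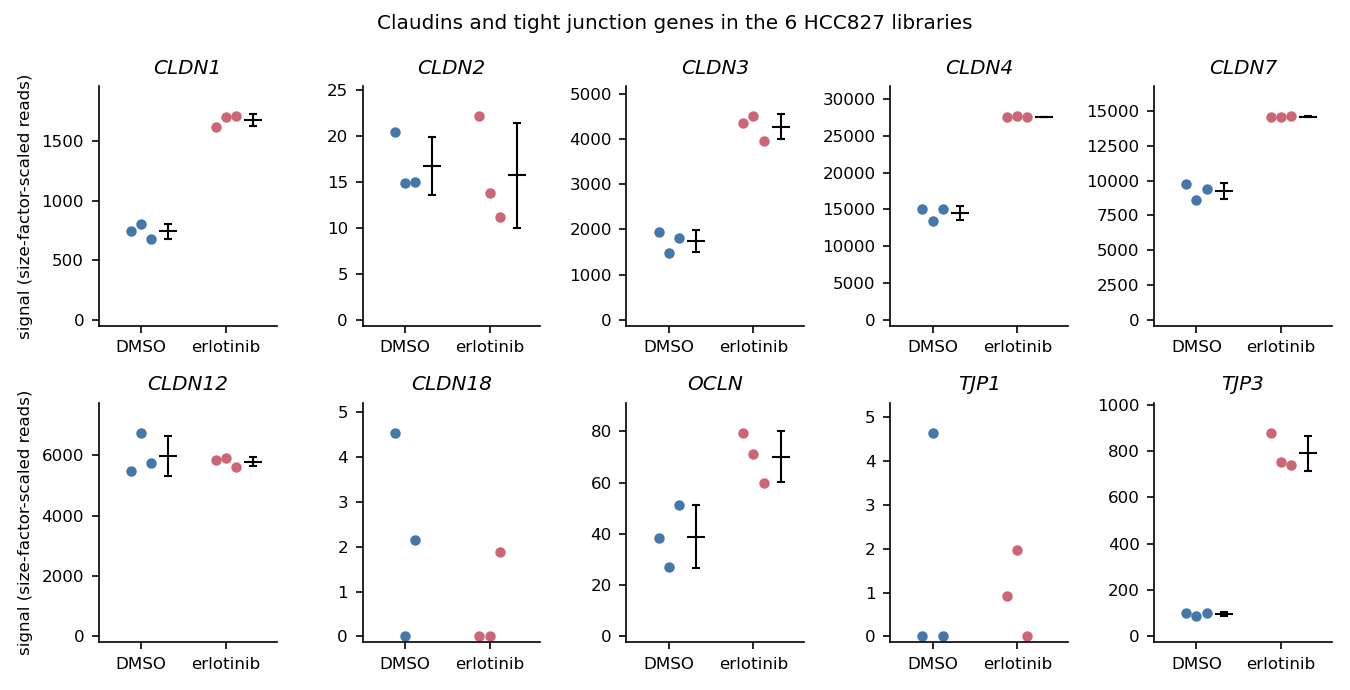
Signal (reads divided by the size factor of the library, linear axes from 0) of each of the 10 genes in the 3 DMSO (blue) and 3 erlotinib (red) libraries, with the mean and SD as a black bar where the gene could be tested. For CLDN1, CLDN3, CLDN4, CLDN7, OCLN and TJP3 every red point lies above every blue one, and TJP1 and CLDN18 stay under a signal of 5.

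CLDN4 and CLDN7 had the highest signal of these genes. CLDN4, a claudin that tightens the junction and a receptor for Clostridium perfringens enterotoxin, had a signal of 15028, 13490.1 and 15072 in the DMSO libraries 1, 2 and 3, and of 27551, 27633 and 27548 in the erlotinib libraries, numbered 4, 5 and 6 in the table. The groups did not overlap, and the erlotinib libraries differed among themselves by far less than the DMSO libraries (SD 48.4 against 901, n = 3 each). Its log2 fold change was 0.93 (SE, the standard error, 0.06; adjusted p = 4.8e-11, limma). CLDN7, which associates with the adhesion protein EPCAM, had a signal of 9764, 8585 and 9396 in DMSO and of 14606, 14565 and 14607 with erlotinib. Again the lowest erlotinib library lay above the highest DMSO library, and the log2 fold change was 0.66 (SE 0.06, adjusted p = 1.0e-08, limma). ELP5, which overlaps one end of CLDN7 on the chromosome, went down, from 1157 ± 57.2 to 836 ± 43.7 (SD over 3 libraries each; adjusted p = 5.7e-05, limma).

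CLDN3, the second enterotoxin receptor among the claudins, rose from 1944, 1484 and 1797 in DMSO to 4342, 4492 and 3958 with erlotinib. CLDN1, a barrier-forming claudin best known from the skin, had a signal of 743, 806 and 675 in DMSO and of 1620.5, 1702 and 1706 with erlotinib. For both genes each erlotinib library was higher than any DMSO library, and the lowest DMSO value belonged to different libraries, library 2 for CLDN3 and library 3 for CLDN1. The log2 fold change was 1.30 for CLDN3 (SE 0.09, adjusted p = 3.2e-11) and 1.18 for CLDN1 (SE 0.09, adjusted p = 1.2e-10, limma). Among all 14215 tested genes, 13.0% had a larger rise than CLDN3, 14.6% a larger rise than CLDN1, 19.1% than CLDN4 and 25.5% than CLDN7.

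CLDN12, a claudin without the motif by which the others bind ZO proteins, was abundant and did not pass the test. Its signal was 5464, 6736 and 5733 in DMSO and 5841, 5891 and 5612 with erlotinib, so that the erlotinib libraries lay within the range of the DMSO libraries. Its log2 fold change was -0.04, with a 95% interval of -0.20 to 0.11 (adjusted p = 0.62, limma). CLDN2, which forms pores for cations and water in leaky epithelia, was close to the limit of the test, with 18, 16 and 14 reads in DMSO and 24, 14 and 12 with erlotinib. RIPPLY1, which overlaps it, had a mean signal of 0.468. The interval of its log2 fold change, -1.10 to 0.86 around -0.12 (adjusted p = 0.82, limma), leaves room for a rise or a fall of the size seen in CLDN7. CLDN18 had 4, 0 and 2 reads in DMSO and 0, 0 and 2 with erlotinib. The floor of 3 reads corresponds to a signal of 2.77 to 3.40 in these libraries, so no change of CLDN18 was detectable at this depth.

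**Figure D2:**
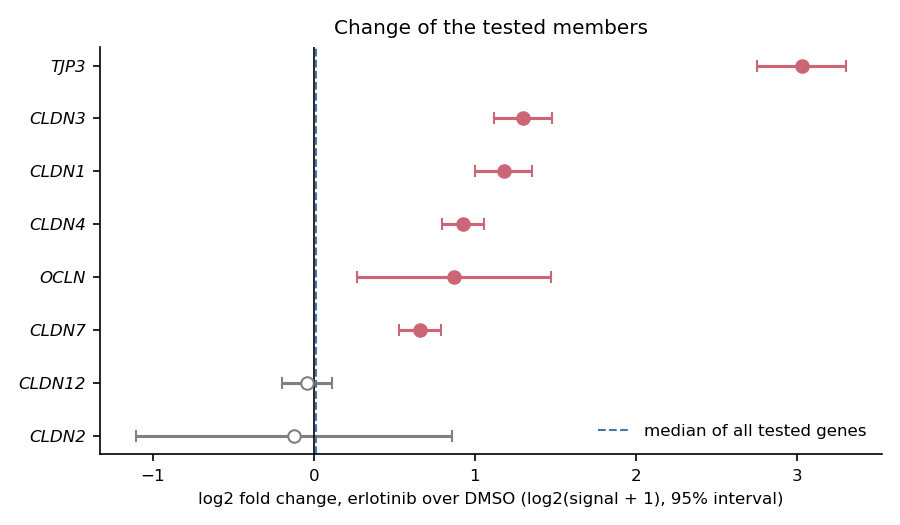
Log2 fold change of erlotinib over DMSO on the scale of log2(signal + 1) for the 8 tested genes, with the 95% interval of limma; filled red points passed an adjusted p of 0.05 and open grey points did not, and the dashed line is the median of all tested genes, 0.02. TJP3 stands at 3.03 and the called claudins between 0.66 and 1.30, while CLDN12 and CLDN2 lie near 0 with a narrow and a wide interval.

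To compare levels between claudins, the signal was divided by the merged exon length of each gene. On this scale of signal per kb, CLDN7 (3711 ± 242) and CLDN4 (3092 ± 192) led in DMSO, followed by CLDN3 (1367 ± 185), CLDN12 (891 ± 99.9), CLDN23 (253 to 274) and CLDN1 (204 ± 18.0; SD, n = 3 each, or the range for CLDN23). With erlotinib the levels per kb of CLDN4 (5869 ± 10.3) and CLDN7 (5856 ± 9.60) differed by little, and the levels per kb of CLDN3 (3347 ± 216), CLDN12 (862 ± 22.2), CLDN1 (462 ± 13.3) and CLDN23 (314 ± 20.6) followed, so that CLDN1 stood above CLDN23 (SD, n = 3 each). Summed over all 24 claudins in the table, the level per kb was 10177, 9187 and 9925 in DMSO and 16976, 17149 and 16645 with erlotinib, 1.73 times as high. The share of CLDN3 in this sum was 14.0% ± 1.18 in DMSO and 19.8% ± 0.99 with erlotinib, and that of CLDN12 was 9.18% ± 1.54 and 5.09% ± 0.06 (SD, n = 3 each). CLDN4 made up 31.7% ± 0.57 in DMSO and 34.7% ± 0.48 with erlotinib, and CLDN7 made up 38.0% ± 0.50 and 34.6% ± 0.57 (SD, n = 3 each). This order depends on the length. The merged exons of CLDN4 measure 4699 bases, more than the whole span of the gene in RefSeq, 1695 bases, which is also its canonical length. With the canonical transcripts CLDN4 stood clearly above CLDN7, at 8572 against 5998 per kb in DMSO and 16270 against 9464 with erlotinib. The small difference between CLDN4 and CLDN7 with erlotinib therefore holds for the merged length only. With the longest or the canonical transcript CLDN12 stood above CLDN3 in DMSO. CLDN3 and CLDN4 are genes of 1 exon in their canonical transcripts, while CLDN1, CLDN7 and CLDN12 have 4, and the aligner does not split reads over introns, so levels between these genes carry that difference too.

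**Figure D3:**
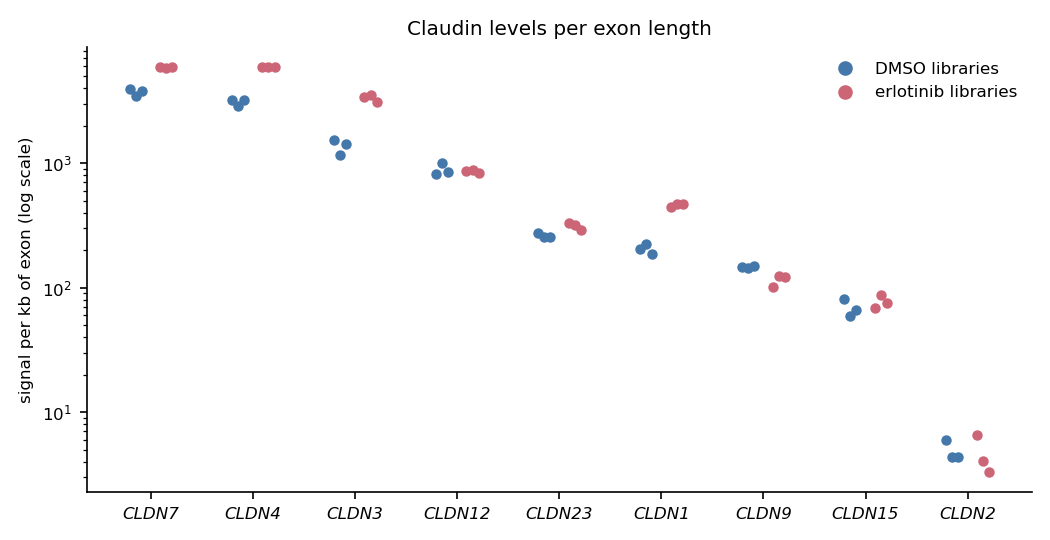
Signal per kb of merged exon length (log axis) of the 9 claudins that could be tested, for each DMSO (blue) and erlotinib (red) library, ordered by the mean in DMSO. CLDN7, CLDN4, CLDN3 and CLDN1 shift upward, whereas the red and blue points of CLDN12 lie at the same height.

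The level of CLDN3 relative to CLDN4 also differed between the groups. Per kb, CLDN3 reached 44.1% ± 3.58 of CLDN4 in DMSO and 57.0% ± 3.61 with erlotinib (SD over 3 libraries each), without overlap (exact two-sided permutation test, p = 0.1, the smallest that 3 libraries against 3 allow). CLDN7 went the other way, from 120.0% ± 2.48 of CLDN4 in DMSO to 99.8% ± 0.339 with erlotinib, again without overlap (exact two-sided permutation test, p = 0.1, the smallest possible). CLDN1 reached 6.65% ± 0.99 and 7.87% ± 0.22 of CLDN4 (SD over 3 libraries each), and here the groups overlapped (exact two-sided permutation test, p = 0.2). With canonical transcript lengths the levels relative to CLDN4 were 15.9% and 20.6% for CLDN3, 70.0% and 58.2% for CLDN7, and 2.53% and 2.99% for CLDN1 in DMSO and with erlotinib, so these percentages depend on the length, whereas the ratio between the groups, 1.29 for CLDN3, 0.831 for CLDN7 and 1.18 for CLDN1, does not. CLDN3 (chromosome 7, 73768997 to 73770270 of GRCh38.p14) and CLDN4 (chromosome 7, 73830996 to 73832690) are neighbours, and other genes around them did not share 1 direction. METTL27, which lies 1900 bp beyond CLDN4, rose from 131 ± 14.2 to 383 ± 48.9 (n = 3 each, SD), which is a log2 fold change of 1.54 (adjusted p = 1.1e-08, limma). Beyond CLDN3, ABHD11 had a log2 fold change of -0.10 (adjusted p = 0.19) and STX1A one of -0.32 (adjusted p = 0.024, limma). BICDL3P (listed as ABHD11-AS1), on the same side at 32997 bp from CLDN3, rose from 5.08 ± 2.69 to 64.3 ± 17.7 (SD over 3 libraries each), or by 3.51 on the log2 scale (adjusted p = 1.4e-06, limma).

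Promoter windows from RefSeq (GRCh38.p14), 250 bases before to 50 bases after a start site, were found for all 10 genes, 18 windows in all. They are shown for the neighbours CLDN3 and CLDN4, for the downstream start of CLDN7, which held the most matches, and for the downstream start of TJP3, the gene that rose most. The upstream windows of CLDN7 and TJP3 and the window of CLDN1 are not shown and held no match. The windows shown thus do not stand for all 18. Capitals mark matches to the letters searched on both strands, CACCTG or CAGGTG for the E-box bound by Snail and ZEB repressors and TGACTCA or TGAGTCA for AP-1.
CLDN3, chr7:73770221-73770520, minus strand: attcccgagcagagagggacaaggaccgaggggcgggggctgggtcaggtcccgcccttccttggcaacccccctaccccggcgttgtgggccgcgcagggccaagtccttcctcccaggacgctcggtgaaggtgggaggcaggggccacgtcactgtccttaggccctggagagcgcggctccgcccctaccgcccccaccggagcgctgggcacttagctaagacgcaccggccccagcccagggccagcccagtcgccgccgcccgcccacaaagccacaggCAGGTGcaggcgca
CLDN4, chr7:73830746-73831045, plus strand: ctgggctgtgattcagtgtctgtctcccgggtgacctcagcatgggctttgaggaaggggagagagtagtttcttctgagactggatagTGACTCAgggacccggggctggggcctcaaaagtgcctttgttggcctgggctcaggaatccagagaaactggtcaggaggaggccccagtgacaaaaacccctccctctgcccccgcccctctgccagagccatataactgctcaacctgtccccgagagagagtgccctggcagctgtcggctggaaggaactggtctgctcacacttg
CLDN7, chr17:7262429-7262728, minus strand: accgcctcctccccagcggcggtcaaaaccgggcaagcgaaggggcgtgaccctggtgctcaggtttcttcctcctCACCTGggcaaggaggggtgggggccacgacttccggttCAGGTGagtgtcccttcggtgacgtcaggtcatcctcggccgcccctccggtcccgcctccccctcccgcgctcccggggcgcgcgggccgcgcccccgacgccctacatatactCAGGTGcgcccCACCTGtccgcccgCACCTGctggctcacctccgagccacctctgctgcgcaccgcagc
TJP3, chr19:3721487-3721786, plus strand: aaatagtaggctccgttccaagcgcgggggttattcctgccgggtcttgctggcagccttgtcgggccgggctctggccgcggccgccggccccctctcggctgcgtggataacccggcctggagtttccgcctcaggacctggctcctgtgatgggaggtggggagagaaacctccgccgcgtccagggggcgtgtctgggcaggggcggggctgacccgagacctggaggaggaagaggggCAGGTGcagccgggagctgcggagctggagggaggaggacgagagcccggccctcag
The E-box letters were present in 7 of the 18 windows (38.9%), against 20.6% of all 35116 windows. The OCLN windows, which both held them, overlap each other. At least 1 such window was found for 6 of the 10 genes (CLDN3, CLDN7, CLDN18, OCLN, TJP1 and TJP3), and none for CLDN1, CLDN2, CLDN4 and CLDN12. Some genes have several windows, so the share of all windows is no background for this count of genes. The CLDN7 window above holds 5 of them. AP-1 letters were found in 1 window, that of CLDN4, against 4.95% of all windows, and the forkhead letters TGTTTAC or GTAAACA in 1 window, of CLDN18, against 3.42%. The TEAD letters GGAATG or CATTCC, present in 14.0% of all windows, and the GRHL palindrome AACCGGTT, present in 0.134%, were in 0 of the 18. These are matches of letters in a short window and not binding sites.

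TJP3 encodes ZO-3, the scaffold that is confined to epithelia among the ZO proteins. Its signal was 99.8, 86.4 and 102 in DMSO and 878, 754 and 739 with erlotinib. No erlotinib library came near the DMSO range, and the log2 fold change was 3.03 (SE 0.13, 95% interval 2.75 to 3.31, adjusted p = 3.9e-14, limma). Of all tested genes, 1.95% rose more. TJP3 (chromosome 19, 3708384 to 3750813) overlaps the end of APBA3, whose signal was 336 ± 45.2 in DMSO and 352 ± 33.3 with erlotinib (n = 3 each, SD), which is a log2 fold change of 0.07 (adjusted p = 0.64, limma).

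OCLN and TJP1, which are usually abundant in epithelial cells, had few reads here. OCLN had 34, 29 and 48 reads in DMSO and 86, 72 and 64 with erlotinib, a signal of 39.0 ± 12.2 and 70.2 ± 9.77 (SD, n = 3 each). The groups did not overlap, and its log2 fold change was 0.87 (SE 0.29, adjusted p = 0.011, limma). This was the least certain of the 6 calls, since without erlotinib library 4 it was 0.78 with an adjusted p of 0.054 (limma). TJP1 had 0, 5 and 0 reads in DMSO and 1, 2 and 0 with erlotinib, and no change was detectable at this depth. The transcripts of 65 tight junction genes were aligned to the reference genome with its 261 alternate contigs, and 3 of them had a further copy of their whole length, at an identity of at least 97%, on such a contig. These were TJP1 (99.9% identity, chromosome 15), OCLN (99.6%, chromosome 5) and MARVELD2 (99.4%, chromosome 5), the gene of tricellulin, which had 0 reads in every library. For OCLN, 82.7% of the transcript also aligned elsewhere on chromosome 5 itself, at an identity of at least 99.4%, so that these stretches are repeated in the reference with or without the contigs. Only uniquely mapped reads were counted, and for TJP1 and MARVELD2 the repeat is present only if the contigs were part of the index, which the study does not state. The part of these copies in the low values was not tested. The highest level of the 3 genes was 4.85 per kb, against a median of 76.2 per kb over the 62 genes without a full-length copy. Whether the values of OCLN and TJP1 reflect the RNA in the cells was not tested.

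**Figure D4:**
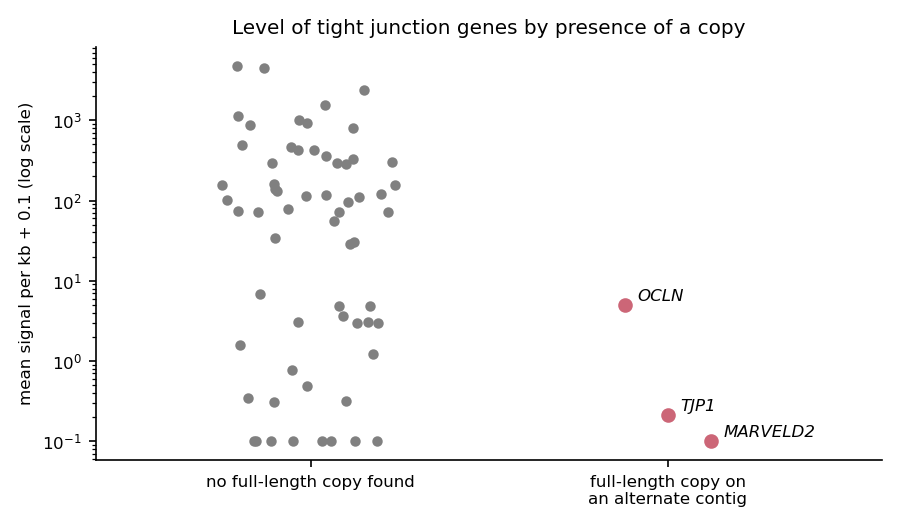
Mean signal per kb of merged exon length over the 6 libraries, plus 0.1, on a log axis, for the 62 tight junction genes without a full-length copy on an alternate contig (grey, spread sideways for visibility) and the 3 with one (red). OCLN, TJP1 and MARVELD2 lie at 4.85 per kb or less, in the range of the least abundant of the other genes.

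Beyond these 10 genes, 55 further tight junction genes were listed by role. Of the 35 that could be tested, 14 were higher, 9 lower and 12 neither, and the median log2 fold change was 0.14. The share called, 65.7%, was close to the 70.7% of all tested genes, with 40.0% higher against 35.3% and 25.7% lower against 35.4%. The difference between this list and the 10 genes was not tested. When libraries were instead scaled to their total counts, 21 were higher and 6 lower, while the 10 genes still gave 6 higher and 0 lower. Under that scaling 43.3% of all tested genes were higher and 27.8% lower, so that the calls of all genes shifted the same way.
Among the 17 other claudins, 3 could be tested. CLDN23 rose from 564 ± 23.8 to 679 ± 44.6 (log2 fold change 0.27, adjusted p = 0.020) and CLDN9 fell from 233 ± 4.28 to 184 ± 20.2 (log2 fold change -0.35, adjusted p = 0.041; limma; SD, n = 3 each). CLDN15 was neither, at 198 ± 33.3 and 222 ± 28.3. CLDN5, the claudin of blood vessels, and 7 others had 0 reads in every library, and CLDN6, CLDN10, CLDN11, CLDN14, CLDN16 and CLDN20 had a mean signal under 10. Of these, CLDN16 is the one that overlaps CLDN1 on the chromosome and whose signal was 4.37 ± 4.28 in DMSO and 15.3 ± 5.45 with erlotinib (n = 3 each, SD).
Of the proteins of tricellular contacts, ILDR1 (angulin-2) rose from 93.8 ± 27.1 to 354 ± 22.3, a log2 fold change of 1.94 (adjusted p = 9.1e-09), and LSR (angulin-1) from 2982 ± 266 to 3620 ± 105, one of 0.28 (adjusted p = 0.0018, limma; SD, n = 3 each). MARVELD3 was neither (log2 fold change 0.11, adjusted p = 0.23). The junctional adhesion molecules F11R (JAM-A) and CXADR were abundant and neither, with log2 fold changes of -0.04 and -0.01 (adjusted p = 0.56 and 0.88). JAM3 fell from 30.9 ± 4.17 to 6.89 ± 2.68 (n = 3 each, SD), which is a log2 fold change of -2.07 (adjusted p = 8.6e-04, limma).

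**Figure D5:**
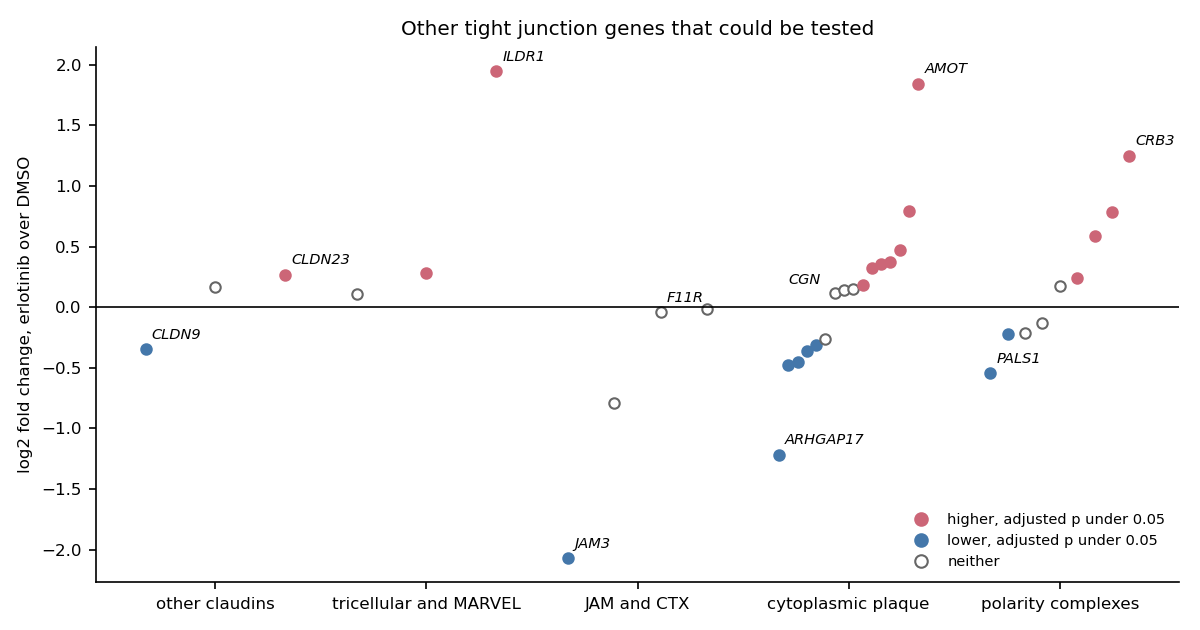
Log2 fold change of erlotinib over DMSO for the 35 tested genes of the wider list, by role; red points were higher and blue points lower at an adjusted p under 0.05 (limma), and open points were neither. Each role except the junctional adhesion molecules (JAM and CTX) holds at least 1 red point, and ILDR1, AMOT and CRB3 lie above 1 while JAM3 and ARHGAP17 lie below -1.

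In the cytoplasmic plaque, 7 of 16 tested genes were higher, 5 lower and 4 neither, so that 75.0% were called, near the 70.7% of all tested genes. The largest rises were those of the angiomotins AMOT (from 202 ± 12.3 to 730.3 ± 61.5, log2 fold change 1.84, adjusted p = 1.2e-11) and AMOTL1 (from 892 ± 57.7 to 1547 ± 128, 0.79, adjusted p = 6.3e-08, limma; SD, n = 3 each), which bind YAP and polarity proteins at the junction. The largest falls were those of the small GTPase regulators ARHGAP17 (from 989 ± 62.7 to 425 ± 34.6, -1.22, adjusted p = 7.1e-10) and ARHGEF2 (from 1218 ± 112 to 871 ± 17.0, -0.48, adjusted p = 5.7e-05, limma; SD, n = 3 each). Cingulin (CGN), which links the ZO proteins to actomyosin, was neither, at 0.12 on the log2 scale (adjusted p = 0.11, limma). Of the 9 polarity genes, 4 were higher, 2 lower and 3 neither, again a share (66.7% called) near that of all tested genes. CRB3, the epithelial Crumbs protein of the apical membrane, rose from 472 ± 61.1 to 1119 ± 30.8 (log2 fold change 1.25, adjusted p = 5.8e-10), whereas PALS1 (listed as MPP5), which binds Crumbs, fell from 5097 ± 490.0 to 3488 ± 121 (-0.54, adjusted p = 1.1e-06, limma; SD, n = 3 each). PARD6A rose by 0.78 and PRKCI fell by 0.22 on the log2 scale (adjusted p = 2.2e-04 and 0.017, limma).

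Of 10 partners and modulators of claudins, 4 were higher and 3 lower, a share close to that of all tested genes. EPCAM, which stabilises CLDN7 and CLDN1 in the membrane, was neither, with 9852 ± 235 in DMSO and 9485 ± 281 with erlotinib (n = 3 each, SD; adjusted p = 0.43, limma). The protease inhibitor SPINT1 rose by 1.09 on the log2 scale (adjusted p = 2.4e-11, limma). ROCK2, a kinase of junctional actomyosin, fell by 0.31 and the protease inhibitor SPINT2 fell by 0.22 on the log2 scale (adjusted p = 0.0013 and 0.0024, limma).
The adherens junction lies just below the tight junction. Of 10 of its genes 6 were higher and 2 lower (of all tested genes, 35.3% and 35.4%), NECTIN4 (from 85.6 ± 9.65 to 482 ± 8.65, log2 fold change 2.49) and plakoglobin (JUP, 1.06) rising most and NECTIN1 (-1.36) and CTNNB1 (-0.36) falling most (adjusted p at most 1.6e-04, limma). E-cadherin (CDH1) was neither by a small margin, with 27824 ± 967 and 30609 ± 633 (SD, n = 3 each; adjusted p = 0.053, limma).

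Transcription factors that are known to bind claudin genes were listed as well, and 14 of 17 could be tested, of which 8 were higher and 4 lower (85.7% called, against 70.7% of all tested genes). The repressors SNAI1 (from 182 ± 30.6 to 49.7 ± 0.79, log2 fold change -1.84, adjusted p = 8.0e-08), SNAI2 (from 648 ± 69.0 to 304 ± 13.0, -1.08, adjusted p = 2.9e-08) and ZEB1 (from 132 ± 18.1 to 92.8 ± 8.85, -0.50, adjusted p = 0.025) fell (limma; SD, n = 3 each), and ZEB2 and TWIST1 had too few reads to test. Among factors of epithelial genes, ELF3 (1.70), GRHL3 (3.18), OVOL2 (0.82), GRHL2 (0.46) and KLF5 (0.29) rose on the log2 scale, the largest adjusted p being 4.5e-04 (limma), KLF4 fell by 0.83 (adjusted p = 1.4e-08), and GRHL1 (0.03) and OVOL1 (-0.02) were neither. The lineage factor NKX2-1, a known regulator of CLDN18 in the lung, rose from 3002 ± 209 to 8644 ± 408 (log2 fold change 1.53, adjusted p = 5.2e-14, limma; SD, n = 3 each), while CLDN18 stayed at 4 reads or fewer in every library. CDX2, a known regulator of CLDN2 in the intestine, rose by 4.83 on the log2 scale (adjusted p = 5.0e-06, limma), from at most 2 reads in a DMSO library, so that its fold change depends on the pseudocount, while CLDN2 did not pass the test.

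The treatment itself was visible in 13 of 13 genes listed as reporting MAPK output, all of them lower (35.4% of all tested genes were lower), led by ETV5 (log2 fold change -4.38) and DUSP6 (-4.33), with DUSP6 at 1391 ± 25.3 in DMSO and 68.2 ± 5.35 with erlotinib (n = 3 each, SD). Of this list, the study counts DUSP6, EGR1, FOSL1 and CCND1 among YAP/TAZ-regulated genes that erlotinib lowered. The epithelial markers KRT7, KRT8, KRT18, KRT19, EPCAM and CDH1 were abundant, and their summed signal was 272808 ± 16434 in DMSO and 189270 ± 2984 with erlotinib (n = 3 each, SD); KRT7, the most abundant, fell by 0.63 on the log2 scale (adjusted p = 1.3e-07, limma), and KRT18 (-1.25) and KRT8 (-0.83) fell more, so that the claudins that rose and these keratins moved in opposite directions. Markers of other cell types differed in level. The 6 endothelial markers summed to 24.7 ± 8.42 in DMSO and 48.9 ± 8.09 with erlotinib, with CLDN5, EMCN and TIE1 at 3 reads or fewer in every library. In DMSO PECAM1 (15.7 ± 3.29) was above VWF (3.94 ± 3.31), and with erlotinib VWF (27.4 ± 6.93) was above PECAM1 (10.4 ± 2.20; SD, n = 3 each). VWF rose by 2.74 on the log2 scale (adjusted p = 6.6e-04, limma), while PECAM1 was neither (-0.55, adjusted p = 0.35, limma). The 6 fibroblast markers summed to 84.3 ± 17.0 and 231 ± 24.1, nearly all of it COL1A1, with COL1A2, COL3A1, DCN and PDGFRA at 3 reads or fewer. The 6 leukocyte markers summed to 2918 ± 220.1 and 3417 ± 156, nearly all of it CD68, a lysosomal protein that epithelial cells also make. The 8 markers of alveolar type 2 cells rose in sum from 1441 ± 102 to 4861 ± 210, led by NAPSA (log2 fold change 1.92) and with SFTPA2 (4.63) rising most and SFTPC at 3 reads or fewer, and the 6 markers of alveolar type 1 cells fell in sum from 46488 ± 1919 to 18778 ± 658, led by CAV1 (-1.31), with RTKN2 (-1.81) also lower, HOPX (2.85) and AQP5 (2.56) higher from low levels, and AGER and PDPN at 3 reads or fewer (SD, n = 3 for each sum). The part of these markers in the change of the claudins was not tested.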

How the data were processed

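Paired-end reads were aligned by the authors to GRCh38 (Bowtie2 2.3.4), reads mapping to 1 place were assigned to genes (featureCounts 1.6.3), and DESeq2 1.18.1 was used. The table they deposited is named raw counts but holds signal, that is reads divided by 1 size factor per library: all values of a library were multiples of 1 step (100% within 0.01 reads), and dividing by that step recovered the reads. The strand setting is not given in the sources used here. From the deposited signal, limma 3.58.1 (R 4.3.3) with a mean-variance trend was fitted to log2(signal + 1) over all 6 libraries without covariates, for the 14215 genes whose mean signal reached 10, two-sided, with Benjamini-Hochberg adjustment. The fit was tested on simulated data in which 200 of 14108 genes were changed. It called 166 of these, and 1.19% of its calls were false. In the real data 70.7% of tested genes were called, so the simulated setting differs from theirs. Replicates differed by more than sampling noise (chi-square over its degrees of freedom, 4.13 to 24.3). The alternatives used DESeq2 1.42.0, edgeR 4.0.16 and other scalings, filters and pseudocounts. Lengths came from GENCODE release 44, positions and promoters from RefSeq, and copies were searched with minimap2 2.31-r1302. Figures were drawn with matplotlib 3.10.9. The members and lists were chosen with earlier results of these data known, and no list was tested as a set. All 10 members, the detected other claudins, genes overlapping a member, the 2 largest rises and falls past the threshold in each list, and junction genes and claudin regulators fixed by name are named, and a few of these are not reported here. METTL27, ABHD11, STX1A and BICDL3P were named after their values were seen, as neighbours of CLDN3 and CLDN4. The 95% intervals are those of limma and rest on the spread between libraries, while the floor of 3 reads covers counting error only.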

Additional observations from a re-analysis of the deposited data

How the results depend on the processing

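The calls of CLDN1, CLDN3, CLDN4, CLDN7 and TJP3 were kept under each of the 17 alternatives, with log2 fold changes of 1.11 to 1.36, 1.19 to 1.48, 0.87 to 1.11, 0.61 to 0.84 and 2.92 to 3.21. The number of the 10 genes called higher was 5 to 6 and the number called lower 0 throughout (DESeq2, edgeR, limma-voom and limma). OCLN lost its call at a threshold of 0.01 (adjusted p = 0.011) and without erlotinib library 4 (log2 fold change 0.78, adjusted p = 0.054), and over the alternatives its adjusted p lay between 0.0034 and 0.054. The log2 fold change of CLDN2 was 0.046 with scaling to the total count, 0.020 without DMSO library 1 and 0.078 without erlotinib library 6, and lay between -0.38 and 0.078 with 1 library left out. That of CLDN12 was 0.14 with scaling to the total count and 0.046 without DMSO library 2, and lay between -0.10 and 0.046 with 1 library left out. Neither gene was called in any of these. Scaling to the total count moved the median of all tested genes from 0.02 to 0.19. The main log2 fold changes of CLDN2 (-0.12) and CLDN12 (-0.04) were smaller in size than that shift. The value of CLDN2 without erlotinib library 4 (-0.38) was larger in size. With libraries left out in turn, 11 to 15 of the wider list were higher and 7 to 10 lower.
The shares of the claudins in their summed level per kb depend on the length used. With the longest transcript in place of the merged exons they were, in DMSO and with erlotinib, 1.79% and 2.41% for CLDN1, 11.3% and 16.5% for CLDN3, 28.9% and 32.8% for CLDN4, 39.8% and 37.5% for CLDN7, and 13.9% and 8.02% for CLDN12. With the canonical transcript, an alternative chosen after seeing the data, they were 1.17% and 1.53%, 7.39% and 10.5%, 46.5% and 51.1%, and 32.5% and 29.7% for CLDN1, CLDN3, CLDN4 and CLDN7, and 9.23% and 5.14% for CLDN12, so that CLDN4 stood above CLDN7. With either of these lengths CLDN12 stood above CLDN3 in DMSO. The direction of each share's difference between the groups was the same with all 3 lengths. No paired analysis was possible because the erlotinib columns carry the numbers 4 to 6 and not the replicate numbers of the labels. Few reads were counted for CLDN2, CLDN18, OCLN and TJP1, which limits what their values can show.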
